A study of Mus musculus with 5 samples.

Results

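The mouse mitochondrial genome encodes 13 proteins, and the transcripts of 10 of them are described here: ND1, ND2, ND4, ND5 and ND6 of complex I, CYTB of complex III, COX1, COX2 and COX3 of complex IV, and ATP6 of complex V. Members were taken by symbol from the deposited count table, where all 10 were found among 35976 gene rows. The table also held ND3, ND4L and ATP8, so all 13 protein-coding genes had a row. None of the 22 tRNA and 2 rRNA genes that RefSeq places on the mitochondrial genome had one.

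Haematopoietic stem cells (HSCs) of the bone marrow were sorted from C57BL/6 mice of 2 genotype labels, WT and Ythdf3-/-, with 2 and 3 libraries. Per the labels, each library held 30 cells that were Lineage- Sca-1+ c-kit+ CD34- CD150+. Libraries were made by Smart-seq2, which copies polyadenylated RNA from few cells over its full length and keeps no strand. YTHDF3 is a cytoplasmic reader of the RNA mark N6-methyladenosine, and the design asks which transcripts differ in its absence. The labels describe neither the allele nor the age of the mice. The series text gives each library its own mouse, but counts 2 knockout and 3 wild-type samples.

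The targeted gene did not follow the labels in all libraries. Ythdf3 (chromosome 3, 16183148 to 16217037, mm10) had 20 and 29 counts in WT-labelled libraries 1 and 2, and 2, 339 and 366 counts in Ythdf3-/- libraries 1, 2 and 3 by label. The library labelled Ythdf3-/- 1 thus had the fewest, while those labelled Ythdf3-/- 2 and 3 had more than both labelled WT. Every direction given here therefore refers to the labels alone. Totals ran from 6357862 to 16650134 counts per library. All 10 stem cell markers on the list (among them Kit, Ly6a, Slamf1 and Procr) had counts in every library, with summed levels of 1524 to 2135 CPM (each count divided by the library total, times 1e6) under the WT label and 1911 to 2815 CPM under the Ythdf3-/- label. The library labelled WT 2 stood apart in markers of dividing cells, at 697 CPM against 11 to 55.8 CPM elsewhere, and the library labelled Ythdf3-/- 1 in erythroid markers, at 36558 CPM against 34.2 to 1301 CPM elsewhere. Markers of monocytes and granulocytes summed to 436 and 463 CPM under the WT label and to 1095, 736 and 722 CPM under the Ythdf3-/- label. The labels did not overlap in this sum, which also held for 20.7% of all single genes tested. Of the 7 markers, 6 and 2 had counts in WT-labelled libraries 1 and 2, and 3, 4 and 6 in those labelled Ythdf3-/- 1, 2 and 3. Csf1r, Mpo and Elane, 3 of the 7 on that list, were all at 0 in the libraries labelled WT 2, Ythdf3-/- 1 and Ythdf3-/- 2. B cell markers stood at 1258 CPM in the library labelled Ythdf3-/- 1 and at 56.5 to 538 CPM elsewhere. A list of markers selected against in the sort or lower in stem cells held Cd34, Cd48 and Flt3. They summed to 243 and 74.6 CPM under the WT label and to 161, 2.75 and 301 CPM under the Ythdf3-/- label. All 3 had counts in every library except that labelled WT 2, where Cd48 had none. The part of these lists in the comparisons between the labels was not tested. All 6 markers of dividing cells had counts in every library except that labelled Ythdf3-/- 1, where 3 had. All 10 erythroid markers had counts in both libraries labelled WT and in that labelled Ythdf3-/- 1. In those labelled Ythdf3-/- 2 and 3, 9 of the 10 had counts.

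The mitochondrial genome is a small circle that is transcribed from both strands into long precursors, which are cut mostly at the tRNAs between the genes. Its proteins are core parts of the respiratory chain and of ATP synthase, and each works only in a complex with subunits that the nucleus encodes. HSCs are known for leaning on glycolysis while they are quiescent, and for raising mitochondrial respiration as they divide and differentiate. Of the 10 genes, 9 lie on 1 strand and ND6 alone lies on the other.

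Parts of the mitochondrial genome were copied into the nuclear chromosomes during evolution, and a read that matches both places cannot be assigned by its sequence. The GENCODE M21 transcripts of mm10 were therefore searched for nuclear copies of each gene, with alignments of at least 100 bases. The sequences below are shown because they span the range found, from an identical copy to a diverged one. COX2 (mitochondrial genome, 7013 to 7696, plus strand) has a copy on chromosome 1, the pseudogene Gm28661, that matched 681 of its 684 bases at 100% identity. A second copy on chromosome 2, Gm13341, matched at 95.91%. Bases 7013 to 7112 of the mitochondrial genome follow with both copies (24615466 to 24615565 of chromosome 1 and 22587863 to 22587962 of chromosome 2, both minus strand), and capitals mark the 2 bases where COX2 and Gm13341 differ.
COX2: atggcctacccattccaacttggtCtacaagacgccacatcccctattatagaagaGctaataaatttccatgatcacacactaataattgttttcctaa
Gm28661: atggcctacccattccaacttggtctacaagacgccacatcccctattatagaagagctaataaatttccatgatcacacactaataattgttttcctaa
Gm13341: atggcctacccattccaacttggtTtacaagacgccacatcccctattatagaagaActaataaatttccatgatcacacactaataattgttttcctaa

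CYTB (14145 to 15288, plus strand) had no copy above 92.91% identity, that of the pseudogene Gm11410 on chromosome 4. Bases 14146 to 14245 are set beside 80003990 to 80004089 of chromosome 4 (plus strand), with the 5 differing bases in capitals.
CYTB: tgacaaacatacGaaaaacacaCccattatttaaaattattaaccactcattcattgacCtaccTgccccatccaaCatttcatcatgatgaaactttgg
Gm11410: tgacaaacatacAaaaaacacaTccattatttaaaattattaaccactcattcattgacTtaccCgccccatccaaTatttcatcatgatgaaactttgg

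ND2 (3914 to 4951, plus strand) had a copy over 510 of its 1038 bases, Gm13339 on chromosome 2, at 96.67% identity. Bases 4442 to 4541 are set beside 22590434 to 22590533 of chromosome 2 (minus strand), with the 2 differing bases in capitals.
ND2: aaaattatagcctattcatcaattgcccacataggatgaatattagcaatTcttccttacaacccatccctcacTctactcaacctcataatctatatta
Gm13339: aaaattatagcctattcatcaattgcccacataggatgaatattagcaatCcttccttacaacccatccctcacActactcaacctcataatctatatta

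Together the 10 genes took a small share of the counts in each library. How reads that also match nuclear copies were treated is not known, so this share is uncertain. Their summed counts were 92976 and 85255 in WT-labelled libraries 1 and 2, which is 0.558% (95% Wilson interval 0.555 to 0.562) and 0.951% (0.944 to 0.957) of all counts. The libraries labelled Ythdf3-/- 1, 2 and 3 had 44171, 71557 and 40767 counts, which is 0.695% (0.688 to 0.701), 0.788% (0.783 to 0.794) and 0.581% (0.575 to 0.587). The lowest and the highest share thus both carried the WT label, with the other 3 between them. Relative to TMM-scaled totals the lowest was instead the library labelled Ythdf3-/- 3, at 0.558% against 0.565% for that labelled WT 1. The means were 0.755 ± 0.277% (SD, n = 2) and 0.688 ± 0.104% (SD, n = 3). The intervals cover the counting error of reads only, and not the spread between mice. Copies of 1 molecule made in amplification were counted as separate reads, so the intervals are too narrow for the counting error of molecules. In sorted pools of this kind a smaller number of cells of a given type and less RNA per cell cannot be told apart.

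CYTB encodes the cytochrome b subunit of complex III, which passes electrons from ubiquinol to cytochrome c. It was the most abundant of the 10, with 50062 and 24901 counts in WT-labelled libraries 1 and 2, and 20127, 33195 and 18701 counts in those labelled Ythdf3-/- 1, 2 and 3. In CPM these were 3007 and 2777, against 3166, 3657 and 2665. It ranked among the 20 rows with the most counts in every library, at place 12 in the library labelled Ythdf3-/- 2 and at place 17 in both labelled WT. CYTB was also the most even of the 10, since its highest library was 1.37 times its lowest, and the 1 gene whose highest library was not the one labelled WT 2. Its means were 2892 ± 163 CPM (SD, n = 2) and 3163 ± 496 CPM (SD, n = 3), with a log2 fold change of 0.04 (SE 0.22) for the Ythdf3-/- label against WT.

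COX1, COX2 and COX3 encode the catalytic core of complex IV, cytochrome c oxidase, which hands electrons to oxygen. COX1 (5328 to 6872, plus strand) had 25198 and 28521 counts under the WT label against 14714, 24528 and 13636 under the Ythdf3-/- label. In CPM it stood at 1513 and 3180 against 2314, 2702 and 1943, so the libraries labelled WT were its lowest and its highest. COX2 was read far less, with 528 and 1449 counts against 306, 463 and 241, or 31.7 and 162 CPM against 48.1, 51.0 and 34.3 CPM. COX3 (8607 to 9390, plus strand) had 595 and 940 counts against 229, 325 and 216, or 35.7 and 105 CPM against 36.0, 35.8 and 30.8 CPM. Without the library labelled WT 2 the levels of COX3 were nearly flat, the highest 1.17 times the lowest.

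Complex I, the NADH dehydrogenase, takes its membrane arm from the ND genes. ND1 (2751 to 3707, plus strand), at the junction of the membrane and peripheral arms, had 5743 and 10532 counts under the WT label against 3954, 4810 and 2890 under the Ythdf3-/- label. These were 345 and 1174 CPM against 622, 530 and 412 CPM. ND4 (10167 to 11544, plus strand), one of the proton-pumping subunits, had 5534 and 8262 counts against 2618, 3330 and 2294, or 332 and 921 CPM against 412, 367 and 327 CPM. For both genes the library labelled WT 2 was highest, and the library labelled WT 1 lay at or near the bottom.

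ND5 (11742 to 13565, plus strand), the proton-pumping subunit at the far end of the arm, had 4673 and 7732 counts against 1667, 4308 and 2464. In CPM it read 281 and 862 against 262, 475 and 351. ND2 (a further pumping subunit) had only 206 and 1049 counts against 272, 324 and 102, or 12.4 and 117 CPM against 42.8, 35.7 and 14.5 CPM. Its spread stayed wide without the library labelled WT 2, at 3.46 times from lowest to highest, the widest of the 10 in those 4 libraries.

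ND6 (13552 to 14070, minus strand), a membrane subunit of complex I, had the most uneven levels. It had 190 and 1457 counts in WT-labelled libraries 1 and 2, and 146, 114 and 113 counts in those labelled Ythdf3-/- 1, 2 and 3. In CPM it stood at 11.4 and 162 against 23.0, 12.6 and 16.1. The library labelled WT 2 was 7.07 times the next highest, while the other 4 lay within 2.01 times of each other.

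ATP6 (7927 to 8607, plus strand), part of the proton channel of ATP synthase, had 247 and 412 counts under the WT label against 138, 160 and 110 under the Ythdf3-/- label. That is 14.8 and 45.9 CPM against 21.7, 17.6 and 15.7 CPM. Of the 3 genes outside the 10, ND4L had 29 and 56 counts against 14, 24 and 21. ND3 had 3 and 18 counts against 0, 1 and 2, and ATP8 had 2 and 0 against 3, 3 and 1, so neither passed the filter on low counts. All 10 members passed it.

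**Figure D1:**
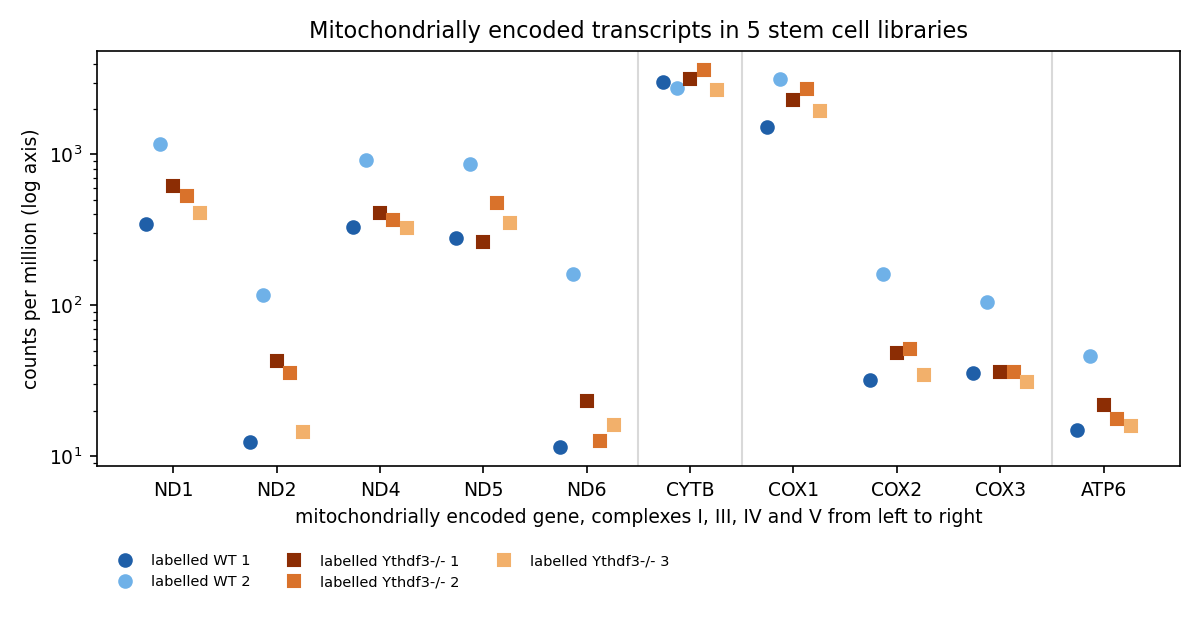
Level of each of the 10 genes in each library, in CPM on a log axis, with circles for the 2 libraries labelled WT and squares for the 3 labelled Ythdf3-/-. The library labelled WT 2 is highest for 9 genes, by 1.18 times (COX1) to 7.07 times (ND6) over the next library, and CYTB is the exception.

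Within the mitochondrial counts, the library labelled WT 2 held the lowest share of CYTB and the highest share of all 5 complex I genes. CYTB and COX1 together made up 80.9% of the mitochondrial counts in the library labelled WT 1, and 78.9%, 80.7% and 79.3% in the 3 labelled Ythdf3-/-, but 62.7% in the library labelled WT 2. The 5 complex I genes made up 17.6%, 19.6%, 18% and 19.3% in the former 4 libraries, in the same order, and 34.1% in the library labelled WT 2. CYTB alone fell between 45.6% and 53.8% of the mitochondrial counts in those 4 libraries and was 29.2% in the library labelled WT 2. COX1 did not follow this pattern, since its share was 33.5% there and 33.3% to 34.3% under the Ythdf3-/- label, and the library labelled WT 1 was the low one at 27.1%. The share of ND2 also ranged from 0.222% to 0.616% among the libraries other than that labelled WT 2, where it was 1.23%. Since these are shares within a library, the scaling between libraries does not enter them.

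ND6, the gene of the opposite strand, varied most within the mix. For every 100 counts of the other 9 genes there were 0.205 of ND6 in the library labelled WT 1, and 0.332, 0.160 and 0.278 in the 3 labelled Ythdf3-/-. The library labelled WT 2 had 1.74. Against ND5 alone, which overlaps ND6 by 14 bases on the opposite strand, there were 4.07 and 18.8 counts of ND6 per 100 under the WT label. Under the Ythdf3-/- label there were 8.76, 2.65 and 4.59. Smart-seq2 keeps no strand, so reads of ND6 and of transcripts that cross it from the other strand cannot be told apart.

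Set against CYTB in the same library, every other member was highest in the library labelled WT 2. This follows from the levels above, where CYTB alone was not highest in that library, and is no further observation. COX1 had 115 counts per 100 of CYTB there and 50.3 to 73.9 elsewhere. ND1 had 42.3 there and 11.5 to 19.6 elsewhere, and ND4 had 33.2 there and 10 to 13 elsewhere. The ratio of the library labelled WT 2 to the next was smallest for COX1, at 1.55, and largest for ND6, at 8.07. The markers of dividing cells given above were highest in the same library, and their part in these values was not tested.

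**Figure D2:**
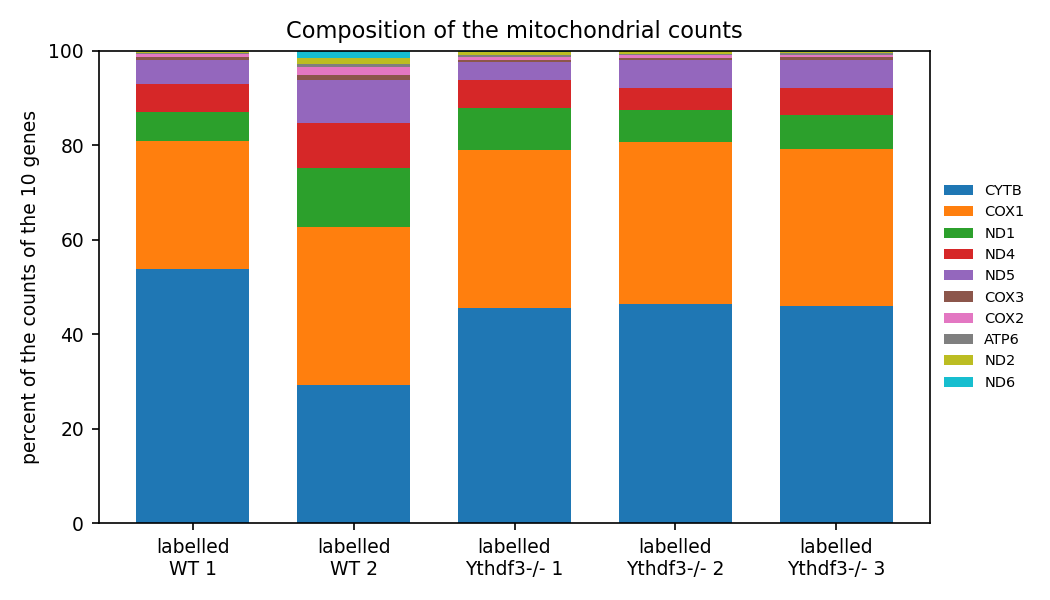
Share of each gene in the summed counts of the 10 genes, in percent, as stacked bars for the 5 libraries. CYTB and COX1 fill 78.9% to 80.9% of the bar in 4 libraries and 62.7% in the library labelled WT 2, where the 5 ND genes fill 34.1%.

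Between the labels, none of the 10 genes passed the quasi-likelihood test of edgeR with Benjamini-Hochberg adjustment over 11146 genes, and of all genes tested 0% passed. No member had an unadjusted p under 0.05 in edgeR, against 4.85% of all genes, and none passed DESeq2 or limma voom, where 2.24% and 0% of all genes passed. Fitted levels were lower under the Ythdf3-/- label for 9 of the 10, against 52.2% of all genes, and the median log2 fold change was -0.85, against -0.063 over all genes tested. For 0 of 10 did the libraries of one label lie wholly above those of the other, against 20.7% of all genes.

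The members nearest to the threshold were ND4 and ND6. The WT label gave ND4 a mean of 627 ± 416 CPM (SD, n = 2), and the Ythdf3-/- label gave 369 ± 42.4 CPM (SD, n = 3), with a log2 fold change of -0.87 (SE 0.46, edgeR adjusted p = 0.9839). ND6 averaged 86.9 ± 107 CPM and 17.2 ± 5.29 CPM, with a log2 fold change of -2.46 (SE 1.34, edgeR adjusted p = 0.9998). With limma voom, which works on log values, the log2 fold changes were smaller, at -0.47 for ND4 and -0.74 for ND6. The SD under the WT label was of the size of the mean itself for ND6, since 1 library of 2 carried nearly all of it. The 2 libraries under that label limit the test, and the exact permutation test of each gene's CPM (two-sided) gave p from 0.6 to 1, where 10 arrangements allow no p below 0.2.

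The other 8 members, CYTB among them, had edgeR adjusted p = 0.9998 each. Their log2 fold changes were -1.23 (SE 0.95) for COX2, -1.17 (SE 1.32) for ND2, -1.14 (SE 1.07) for COX3, -0.84 (SE 1.68) for ATP6, -0.76 (SE 0.51) for ND5 and -0.65 (SE 0.51) for ND1. For COX1 it was -0.12 (SE 0.35). With limma voom these 7 values were -0.39, 0.16, -0.65, -0.26, -0.29, -0.13 and 0.21, in the same order, so ND2 and COX1 changed sign. Every one of the edgeR values except those of ND1, ND5, COX2 and COX3 was smaller than its own standard error.

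The direction rested on the library labelled WT 2. Without it, 1 of 10 members was fitted lower under the Ythdf3-/- label, COX3 at -0.10, against 44.5% of all genes in that fit, and the median log2 fold change became 0.40, which leaves 1 library labelled WT. ND6 went from -2.46 to 0.55, ND2 from -1.17 to 1.28 and ND1 from -0.65 to 0.56. Without the library labelled WT 1, 9 of 10 members were fitted lower, against 44.2% of all genes. The median was then -1.45, with ND6 at -3.37, and 6 of the 10 had an unadjusted p under 0.05 in edgeR, against 7.96% of the 12771 genes tested in that fit. None of the 10 passed after adjustment there, against 0.00783% of all genes. CYTB stayed near 0 in both cases, at 0.04 and 0.06, and COX1 went to 0.58 and -0.58. The median over all genes tested was 0.215 without the library labelled WT 2, and 0.311 when that labelled WT 1 was left out instead.

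**Figure D3:**
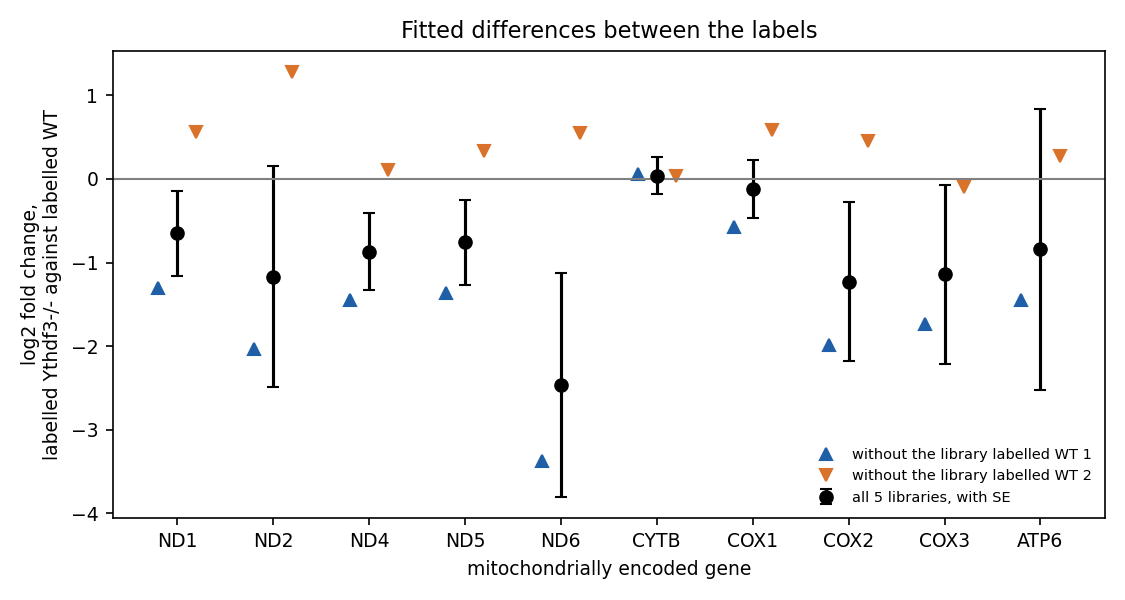
Fitted log2 fold change of each gene for the Ythdf3-/- label against the WT label, with all 5 libraries (black, bars are the SE), and without 1 of the 2 libraries labelled WT (triangles). Leaving out the library labelled WT 2 moves 8 of the 9 values below 0 to above it, and CYTB stays between 0.04 and 0.06.

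Per length, the order of the 10 transcripts was steep. Mean levels over the 5 libraries, in CPM per kb of gene, were 2670 ± 340 for CYTB, 1509 ± 419 for COX1, 644 ± 344 for ND1, 342 ± 184 for ND4 and 245 ± 135 for ND5 (SD, n = 5 each). In every library these 5 genes kept this order. COX2 followed at 95.5 ± 79.6, ND6 at 86.9 ± 127, COX3 at 62.0 ± 40.2, ND2 at 42.8 ± 41.0 and ATP6 at 34.0 ± 19.1 CPM per kb. Among these lower genes the order was not fixed: ND6 was above COX3 in 1 of 5 libraries, and ND2 above ATP6 in 3 of 5. ND5 was above COX2, and COX3 above ND2, in 5 of 5.

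Nuclear copies were unevenly spread over the members. COX2, COX3 and ATP6 matched an annotated nuclear pseudogene at 99% identity or more over 99.6%, 99.9% and 99.6% of their length, and their mean levels were between 34.0 and 95.5 CPM per kb. The copies are Gm28661, Gm28437 and Gm10925, which lie on the minus strand of chromosome 1 between 24611535 and 24616197, together with those of COX1 and ND4. ND4 matched over 63.6% of its length and COX1 over 31.3%, with mean levels of 342 and 1509 CPM per kb. ND1, ND2, ND5, ND6 and CYTB had no copy at that identity, and their mean levels covered the whole range from 42.8 to 2670 CPM per kb. ND2 and ND6, at 42.8 and 86.9 CPM per kb, lay in the range of COX2, COX3 and ATP6. At lower identity, ND2 matched over 49.1% of its length at 95% or more, and ND6 over 100% at 90% or more. Genes at higher levels had such copies too. COX1 matched over 100% of its length and ND5 over 52.3% at 95% or more, and CYTB over 99.8% at 90% or more. Of the 5 genes without a copy at 99%, ND1 alone had none at 90% either. Only annotated transcripts were searched, so nuclear copies without an annotation could not be found for any gene. Of the genes outside the 10, ND3 and ND4L matched over 99.1% and 99% of their length, at 1.48 and 10.7 CPM per kb. None of these pseudogenes had a row in the count table, and how reads matching several places were treated is not given in the sources used here. Levels of COX2, COX3, ATP6, ND4 and COX1, and the summed share of the 10 genes, are therefore uncertain. The part of the copies in the levels was not tested.

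**Figure D4:**
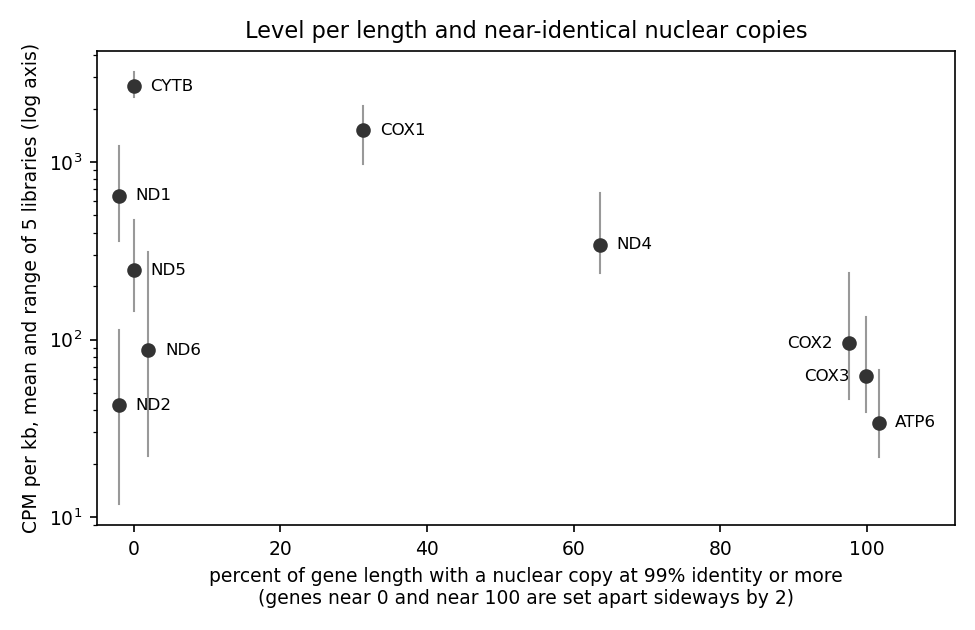
Mean level per length of each gene (points, with lines from the lowest to the highest of 5 libraries, log axis) against the percent of its length that has an annotated nuclear copy at 99% identity or more. The 3 genes copied nearly whole lie at 34.0 to 95.5 CPM per kb, and the 5 genes without such a copy lie at 42.8 to 2670 CPM per kb.

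The nuclear-encoded partners of the same complexes were compared by a list of 75 subunits, chosen with earlier results of these data known. All 75 were tested and 0 passed edgeR in either direction, with 6 lower and 0 higher at an unadjusted p under 0.05, where 2.75% and 2.11% of all genes were. These 6 were Ndufa2 and Ndufa11 of complex I, Uqcrq, Uqcr10 and Uqcr11 of complex III, and Cox6b1 of complex IV. Every library labelled Ythdf3-/- lay below both labelled WT for 24 of the 75, against 11% of all genes tested, and the opposite held for 0 of 75, against 9.74%. The median log2 fold change was -0.58, and -0.06 without the library labelled WT 2.

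By complex, the 2 genomes differed in how far the library labelled WT 2 stood out. The 37 nuclear subunits of complex I summed to 9656 CPM in it and 6108 to 6961 CPM elsewhere, 1.39 times the next. The 5 mitochondrial ones summed to 3237 CPM in it and 982 to 1420 CPM elsewhere, 2.28 times the next. For the sums of complex IV the order was turned. The 10 nuclear subunits stood at 4871 CPM against 2546 to 3106 CPM (1.57 times), and the 3 mitochondrial ones at 3447 CPM against 1581 to 2789 CPM (1.24 times). Of those 3447 CPM, 3180 were COX1, which was 1.18 times the next library. COX2 and COX3 were 3.17 and 2.91 times the next, above the nuclear ratio. The 9 nuclear subunits of complex III were highest there as well, at 3329 CPM against 1916 to 2711 CPM, while their mitochondrial partner CYTB was not. The 15 nuclear subunits of ATP synthase stood at 6499 CPM against 4329 to 4699 CPM (1.38 times). Their mitochondrial partner ATP6 stood at 45.9 CPM against 14.8 to 21.7 CPM (2.12 times).

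**Figure D5:**
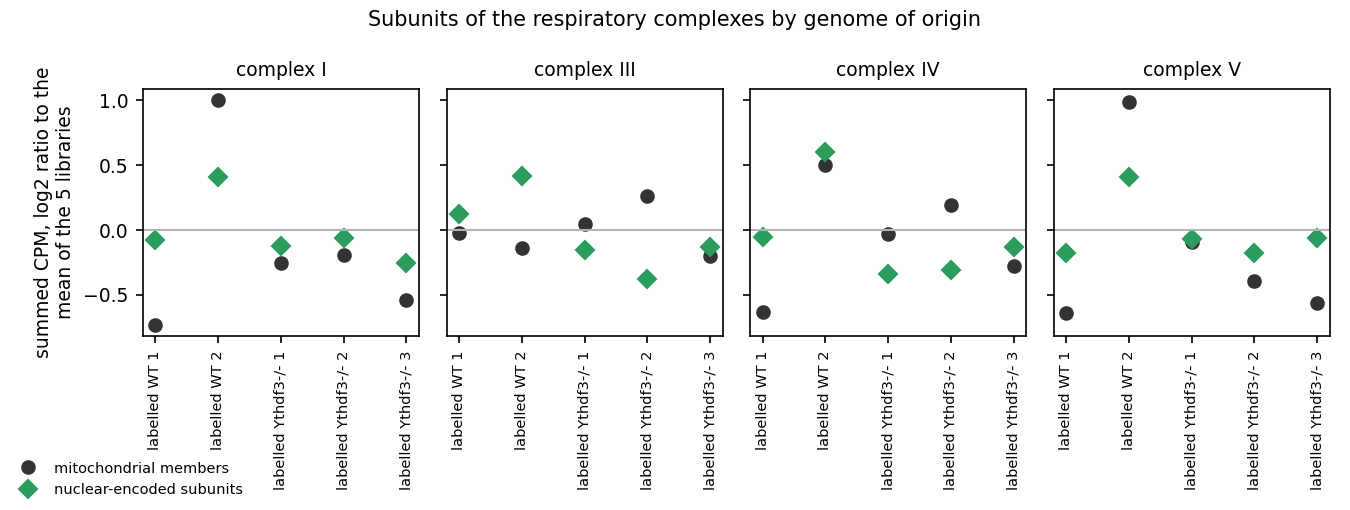
Summed CPM of the mitochondrial members (circles) and of the nuclear-encoded subunits (diamonds) of complexes I, III, IV and V, as the log2 ratio to the mean of the 5 libraries. In the library labelled WT 2 the complex I members stand at 1 and their nuclear partners at 0.41, and in complex III the member CYTB stands at -0.14 and the nuclear partners at 0.42.

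Within these lists, Cox6b1, Uqcrq and Uqcr11 had the smallest p. Cox6b1 averaged 641 ± 174 CPM (SD, n = 2) and 302 ± 37.0 CPM (SD, n = 3), a log2 fold change of -1.18 (SE 0.34, edgeR adjusted p = 0.9641). Uqcrq averaged 285 and 103 CPM, and Uqcr11 573 and 238 CPM. Their log2 fold changes of -1.57 and -1.37 became -1.20 and -0.74 without the library labelled WT 2. That of Cox6b1 became -0.82.

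The machinery that transcribes, processes and translates mitochondrial RNA is encoded in the nucleus. Of 59 such factors and regulators listed, 57 were tested, 0 passed edgeR, and 1 had an unadjusted p under 0.05. The library labelled WT 2 was highest for 17 of the 57, against 22.9% of all genes tested. It was also highest for 9 of the 10 members and for 50 of the 75 nuclear-encoded subunits. By list, the median log2 fold change was 0.07 for 18 genes of transcription and replication, 0.10 for 19 of RNA processing and decay, 0.27 for 13 translation factors and -0.25 for 7 regulators of biogenesis.

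Polrmt (chromosome 10, 79736125 to 79746604), the mitochondrial RNA polymerase, stood at 42.1 and 60.3 CPM under the WT label and 8.65, 57.9 and 79.2 CPM under the Ythdf3-/- label. Tfam (chromosome 10, 71225468 to 71238328), which packages mitochondrial DNA and opens its promoters, read 82.0 and 115 CPM against 28.8, 119 and 37.9 CPM. Tefm, the elongation factor of that polymerase, read 54.5 and 31.9 CPM against 41.2, 24.0 and 63.1 CPM. For all 3 the libraries of both labels overlapped.

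Lrpprc and Slirp form the complex that binds and stabilises mitochondrial mRNA. Lrpprc (chromosome 17, 84705247 to 84790786) read 77.4 and 60.8 CPM under the WT label and 0.472, 86.7 and 21.4 CPM under the Ythdf3-/- label. Slirp read 55.1 and 106 CPM against 53.0, 6.06 and 83.8 CPM. Pnpt1, an RNA-degrading enzyme of mitochondria, read 37.8 and 22.0 CPM against 19.5, 30.7 and 63.6 CPM. The low readings of Lrpprc and of Slirp thus came from different libraries of 1 label, those labelled Ythdf3-/- 1 and Ythdf3-/- 2. In those libraries the 10 members summed to 0.695% and 0.788% of counts, neither the lowest nor the highest of the 5. Each of these low readings is from 1 library, and the part of Lrpprc and Slirp in the members' levels was not tested.

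Of the translation factors, Mtfmt, Gfm1 and Mtif2 had the smallest p. Mtfmt (chromosome 9, 65435782 to 65453054), which formylates the initiator tRNA of mitochondrial translation, stood at 0.781 and 0.223 CPM under the WT label and 48.9, 89.1 and 60.7 CPM under the Ythdf3-/- label. The fitted difference in Mtfmt was 6.92 in log2 units (SE 1.81, edgeR adjusted p = 0.9641), and it passed DESeq2 at an adjusted p of 1.92e-05. Gfm1, a translation elongation factor, was at 1.5 and 12.5 CPM against 0, 0.220 and 0.143 CPM. Mtif2, an initiation factor, averaged 105 and 38.0 CPM. Gfm1 had no count in 1 library and at most 2 in the other libraries of that label, whereas each of the 10 mitochondrial genes had at least 102 counts in every library.

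In the other lists the smallest p belonged to Polg2, Mterf4 and Mgme1 for transcription and replication. Their means were 3.65, 0.450 and 49.8 CPM under the WT label and 43.0, 16.6 and 134 CPM under the Ythdf3-/- label. For RNA processing they were the gene of the protein subunit of RNase P (row 1110008L16Rik, now named Prorp), Fastkd3 and Grsf1. Their means were 1.88, 0.712 and 73.6 CPM against 57.2, 23.7 and 15.2 CPM. For biogenesis they were Gabpb1, Pprc1 and Ppargc1b, with means of 52.3, 79.4 and 18.1 CPM against 101, 38.4 and 6.04 CPM. Some of these means hide a wide spread among the libraries labelled Ythdf3-/- 1, 2 and 3. There 1110008L16Rik read 53.6, 115 and 2.99 CPM, and Fastkd3 46.6, 23.7 and 0.713 CPM. Mterf4 read 21.7, 0.441 and 27.6 CPM, and Ppargc1b 0, 17.8 and 0.285 CPM. None of these 9 passed edgeR, with adjusted p = 0.9831 for 1110008L16Rik and 0.9998 for the rest. The log2 fold change of Pprc1, -1.15, became 0.43 without the library labelled WT 2, and that of Mgme1, 1.36, became 0.50 without it and 4.2 without that labelled WT 1.

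Among 9279 nuclear genes with a mean of at least 10 CPM, the 5 whose profile over the libraries lay closest to the mean profile of the members were Hnrnpa1, Ahcy, Ndufc2, Gtf2a2 and Ndufs6. Closeness was measured as the root mean square difference of log2(CPM + 1), each profile less its own mean, over 5 libraries. It was 0.0994 for Hnrnpa1 (chromosome 15), an RNA-binding protein of splicing, which read 224 and 738 CPM under the WT label and 363, 361 and 245 CPM under the Ythdf3-/- label. Ndufc2 and Ndufs6, at 0.129 and 0.154, are nuclear-encoded subunits of complex I. Measured the same way, ATP6, ND1 and ND4 lay at 0.113, 0.117 and 0.133 from the members' own mean, and CYTB and ND6 at 0.684 and 0.782. The mean profile itself stood at -0.60 and 1.20 in WT-labelled libraries 1 and 2, and at -0.05, -0.09 and -0.46 in the 3 labelled Ythdf3-/-, in log2 units.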

How the data were processed

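The authors deposited raw counts, 1 row per symbol, for 5 libraries of 30 HSCs each, read as 150-bp pairs per the labels' protocols. HISAT2 2.2.1, HTSeq 0.12.4 and mm10 are named in the submitters' processing notes. Which annotation and strand mode were used, and what became of multi-mapping reads, is not given in the sources used here. The members and gene lists were chosen with earlier results of these data known.

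Counts were tested in R 4.3.3 with edgeR 4.0.16 (quasi-likelihood, robust fit, TMM factors, default expression filter, Benjamini-Hochberg at 0.05) on all rows, and in alternatives with DESeq2 1.42.0 and voom of limma 3.58.1. Standard errors were derived from the F statistic. The test was tried on simulated counts first, where a set number of calls was required only at a smaller spread than that fitted here. The fitted spread within a label was large, with a common biological coefficient of variation of 1.26 in edgeR. How many changed genes the test finds at that spread is not given here. CPM are counts divided by the library total, times 1e6, and 1 count is worth 0.0601 to 0.157 CPM. Gene positions are 1-based, from RefSeq GRCm38.p6, which is mm10. Mitochondrial genes were matched to GENCODE M21 transcripts, which also gave strands, sequences and nuclear copies (BLAST 2.17.0, megablast, E-value limit 1e-10). Exact permutation tests were two-sided.

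Named beside the 10 members were the other mitochondrial rows, the 3 genes with the smallest p in each of 5 lists, 6 fixed factors, the 5 closest profiles, and Ythdf3. The list names Twnk and Prorp were matched to the rows Peo1 and 1110008L16Rik by synonym.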

Additional observations from a re-analysis of the deposited data

How the results depend on the processing

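Alternatives covered 3 other scalings, a scale set without the mitochondrial rows, 2 other filters, DESeq2, limma voom, each library left out, the libraries labelled WT 2 and Ythdf3-/- 1 left out together, and a replicate block. No member passed the adjusted threshold in any of them. The count over all genes, 0 with all libraries, was 21 with no filter and 250 with DESeq2, and ran from 0 to 1 with 1 library left out. The members' median log2 fold change of -0.85 was between -0.86 and -0.28 under the scalings, filters and tools, and ran from -1.45 to 0.40 with 1 library left out. It was 0.32 without the libraries labelled WT 2 and Ythdf3-/- 1. There ND1 was 0.39, ND2 0.96, ND4 0.00 (just above 0), ND5 0.50, ND6 0.27, COX1 0.56, COX2 0.37 and ATP6 0.11, with Pprc1 at 0.97, Polrmt 0.64, Hnrnpa1 0.38, Ahcy 0.29, Ndufc2 0.02, Gtf2a2 0.25 and Ndufs6 0.53, all of the opposite sign to the fit of all libraries. This fit, the fit without the library labelled WT 1 and the fit without that labelled WT 2 each leave 1 library under the WT label. That library is assumed to vary like the others. With limma voom ND2 was 0.16 and COX1 0.21, and the median of all genes was -0.171.

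With 1 library left out, log2 fold changes ran from -1.30 to 0.56 for ND1, -2.04 to 1.28 for ND2, -1.45 to 0.11 for ND4, -1.37 to 0.34 for ND5, -3.37 to 0.55 for ND6, -0.58 to 0.58 for COX1, -1.99 to 0.45 for COX2, -1.45 to 0.27 for ATP6 and -0.08 to 0.17 for CYTB. Among the other named genes they ran from -2.14 to 0.43 for Pprc1, -0.69 to 0.36 for Polrmt, -0.47 to 0.28 for Tefm, -0.31 to 0.65 for Pnpt1, -1.32 to 0.49 for Hnrnpa1, -1.44 to 0.36 for Ahcy, -1.46 to 0.23 for Ndufc2, -1.73 to 0.27 for Gtf2a2 and -1.22 to 0.62 for Ndufs6. The causes were not tested. The difference in the members' summed share, -0.0665 percentage points, ran from -0.263 to 0.13, and was 0.126 without the libraries labelled WT 2 and Ythdf3-/- 1. The difference in ND6 per 100 counts of the other members, -0.715, ran from -1.48 to 0.0516, was 0.014 without those 2 libraries, and was -6.12 with ND5 alone as the reference. Mtfmt passed with DESeq2 only, at 6.97. Of 150 values of members under an alternative, 129 kept their direction, and of 400 for other named genes 380 did.

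The replicate numbers do not pair the libraries, which come from different mice, and the deviations of libraries of different labels correlated between -0.01 and 0.01. With the replicate block, 0 genes passed, 285 had an unadjusted p under 0.05 against 541 without it, the members' median was -0.53, ND6 was -1.42, COX1 was 0.11 and Pnpt1 was -0.31. Depth was lowest for ND2, ND6 and ATP6, with 102, 113 and 110 counts in their shallowest library.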
